A study of Mus musculus with 64 samples.

Results

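Wild-type (WT) mouse natural killer (NK) cells were triggered through their activating receptor NK1.1 while tumour cell conditioned medium (CM) was present, and 4 stimulated libraries were compared with 4 unstimulated ones. These 8 libraries were chosen by their titles from the 64 libraries of the series. With CM present, stimulation raised 1059 of 10723 tested genes and lowered 750. The genes that rose included EGR and NR4A transcription factors, NF-kB genes, the cytokine genes Ifng, Csf2 and Areg, the chemokine genes Xcl1, Ccl3 and Ccl4, perforin, and nearly the whole list of ribosome biogenesis genes. Genes that fell included Klrb1c, which encodes NK1.1 itself, Ifngr1 and the chemokine receptor genes Ccr2 and Cxcr3. Set against the same stimulation without CM, the response differed significantly at 235 genes. The responses of Tnf, Ifng, Rel, Ccl1, Pim1, Jak2 and Pdgfa were smaller with CM, and so was the fall of Ifngr1.

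NK1.1 is a C-type lectin-like receptor that signals through the Fc receptor gamma chain, whose phosphorylated motifs recruit Syk and Zap70. Downstream of these kinases, adaptors such as SLP-76 connect to calcium, RAS-ERK and NF-kB signalling, which drive immediate early transcription factors and then cytokine and chemokine genes. Prostaglandin E2 (PGE2) acts on NK cells through the receptors EP2 and EP4, which raise cyclic AMP and activate protein kinase A, a pathway known to dampen signalling from immune receptors.

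NK cells came from spleens of C57BL/6J mice, of unstated age, and had spent 5 days in culture on IL15:IL15Ra and a low dose of IL-2. In the stimulated arm CM was given for 1 h before anti-NK1.1, which lasted the following 4 h, whereas the unstimulated arm received CM for 5 h. Both arms thus received CM, and any difference in its duration between them cannot be told apart from stimulation. The CM came from control BRAFV600E tumour cells that make PGE2, and its PGE2 content is not given in the sources used here. The comparison groups were WT cells without CM, stimulated and unstimulated (4 libraries each), WT cells with PGE2 at 100 ng/ml (4 stimulated and 2 unstimulated), EP2/EP4KO cells with CM (3 and 3), and EP2KO cells without CM (4 and 4), which lack Ptger2 alone and served only to choose genes. EP2/EP4KO cells lack Ptger2 in the germ line and carry floxed Ptger4 cut by Cre under the Gzmb locus, so the loss of EP4 depends on Gzmb expression.

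Xist, the RNA that coats the inactive X, averaged 696 CPM in stimulated and 754 CPM in unstimulated WT libraries with CM, against 40.6 and 51.7 CPM in the matching EP2/EP4KO libraries, so that WT and EP2/EP4KO cells appear to differ in sex as well. The labels do not say whether replicates came from separate animals or cultures, so the p-values reflect only how these samples vary, and that variation may be technical.

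Levels are given as CPM, counts per 1000000 of a library total scaled by the trimmed mean of M values. Fold changes are log2 values, stimulated over unstimulated, ± the standard error of edgeR's quasi-likelihood fit, with its Benjamini-Hochberg adjusted p over the 10723 tested genes. A gene was called where that p was under 0.05. In bulk RNA, fewer cells of a type and less of an RNA per cell cannot be told apart.

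The stimulated libraries held 1148397 to 1355427 counts and the unstimulated ones 765903 to 1013588, without overlap (exact two-sided permutation p = 0.0286, the smallest that 4 against 4 allows, 0.157 after adjustment over 11 such tests). Mitochondrial genes took 8.93% ± 0.961 of the counts in stimulated and 11.1% ± 1.25 in unstimulated libraries (SD, n = 4 each, exact permutation p = 0.114, adjusted 0.251). All 14 NK identity markers passed the filter and took 1.03% ± 0.0867 of the counts in stimulated and 0.990% ± 0.0751 in unstimulated libraries (exact permutation p = 0.543, adjusted 0.597). T cell markers took 0.0566% ± 0.00722 (0.0498% to 0.0667%) in stimulated and 0.0471% ± 0.00125 (0.0456% to 0.0486%) in unstimulated libraries (exact permutation p = 0.0286, adjusted 0.157). Of the 13 T cell markers 8 were tested and 1 was called, Trac, the constant region of the T cell receptor alpha chain, at 33.7, 28.4, 35.8 and 49.6 CPM in stimulated against 14.6, 11.3, 9.58 and 10.3 CPM in unstimulated libraries (1.65 ± 0.25, adjusted p = 4.26e-07 by edgeR's fit across all genes). The co-receptor genes Cd4, Cd8a and Cd8b1 were too low to test, each averaging under 1 CPM in both groups, and the part of T cells in any result was not tested. Markers of melanoma cells, B cells and erythroid cells stayed under a 0.01% share in each of the 8 libraries. Neutrophil markers took 0.00738%, 0.0261%, 0.00804% and 0.00488% in stimulated and 0.00750%, 0.0396%, 0.0155% and 0.00910% in unstimulated libraries, and markers of macrophages with dendritic cells 0.00958% to 0.0188% and 0.00918% to 0.0247%. Replicate 2 was the highest of its group for both lists. Of the B cell markers, Ighm averaged 54.1 CPM in stimulated and 45.8 CPM in unstimulated libraries and Igkc 9.22 and 24.5 CPM, both before scaling, while Cd79a and Pax5, like Dct of melanoma cells, had no count in any of the 8 libraries.

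In the 8 libraries with CM, 9.88% of tested genes were called higher and 6.99% lower, which is the background for the counts of members below. At a change of at least 2-fold these shares were 3.98% (427 genes) and 1.46% (157 genes). The libraries of the groups did not overlap for 1259 genes that were higher (11.7%) and 986 that were lower (9.20%). The median log2 fold change over all tested genes was -0.04. The gene with the smallest p was Nr4a3. Changes were ranked among called genes without overlap between the groups, passing over predicted genes, numbered clones, antigen receptor segments and mitochondrial genes. Among those averaging 4 or more in log2 CPM over the 64 libraries, the largest rises were those of Fosl1 (3.21 ± 0.53), Zc3h12c (2.85 ± 0.40) and Egr3 (2.81 ± 0.26). Fosl1 was low in these 8 libraries, and Areg, just under that level, rose by 3.16 ± 0.46. The largest falls in the same ranking were smaller in size, led by Tmem71 (-1.66 ± 0.19), Hadh (-1.39 ± 0.26) and Abcb1a (-1.36 ± 0.16).

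**Figure D1:**
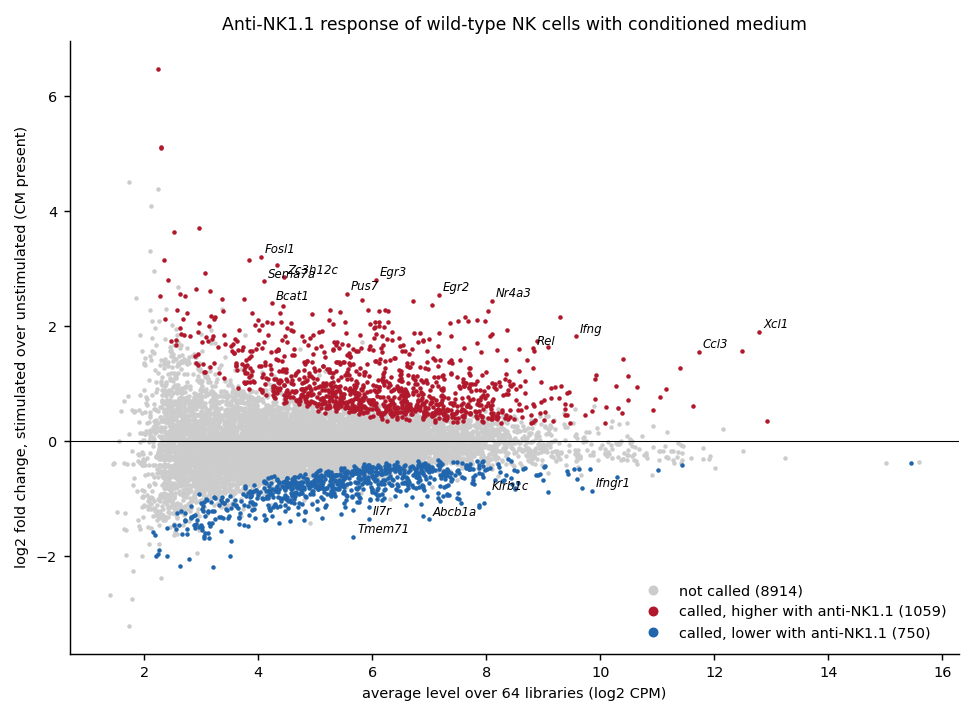
Log2 fold change of each tested gene, stimulated over unstimulated WT NK cells with CM (vertical), against its average level over 64 libraries in log2 CPM (horizontal). Red points are the 1059 genes called higher and blue points the 750 called lower, with Fosl1, Zc3h12c and Egr3 among the largest labelled rises and Tmem71 the largest labelled fall.

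Among the 27 tested genes of the NK1.1 receptor and its proximal signalling, 4 were called higher and 3 lower, with a median of -0.02. Klrb1c, which encodes the triggered receptor (chromosome 6, 128778485 to 128789215 on GRCm38), stood at 171, 127, 172 and 165 CPM in the stimulated libraries against 312, 286, 271 and 318 CPM in the unstimulated ones. Every stimulated library lay below every unstimulated one (-0.90 ± 0.14, adjusted p = 7.31e-07). Ptpn6, which encodes the phosphatase SHP-1 that inhibitory NK receptors recruit, stood at 123, 146, 126 and 132 CPM against 48.7, 53.3, 45.2 and 49.5 CPM, again without overlap but in the other direction (1.41 ± 0.15, adjusted p = 3.60e-11). Lcp2, which encodes the adaptor SLP-76, and Fyn, a Src family kinase, also rose (0.67 ± 0.13 and 0.82 ± 0.14). Chosen after their values were seen, Syk (-0.83 ± 0.21) and the zeta chain gene Cd247 (-0.97 ± 0.22) were the other falls, and the kinase gene Zap70 was the other rise (0.49 ± 0.17, adjusted p = 0.037). The call for Zap70 was lost in 5 of the 8 fits that left out 1 library, its value being 0.35 without unstimulated replicate 2 (adjusted p = 0.187, edgeR).

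Of 17 tested activating and adhesion receptors 4 were called higher and 2 lower, the Fc receptor gene Fcgr3 (-0.93 ± 0.25) and the adhesion gene Cd2 (-0.85 ± 0.19), both named after their values were seen. Crtam, a receptor for nectin-like adhesion molecules on target cells, gave the largest rise, at 578, 577, 630.1 and 688 CPM in stimulated against 132, 163, 130.03 and 126 CPM in unstimulated libraries (2.16 ± 0.16, adjusted p = 2.60e-17). The SLAM family receptor Slamf7 (1.58 ± 0.18), the HVEM-binding receptor Cd160 (1.28 ± 0.26) and the activation marker Cd69 (1.28 ± 0.16) rose as well. Ncr1, which encodes the activating receptor NKp46, was not called (0.33 ± 0.17, adjusted p = 0.202). Of 10 tested TNF receptor and costimulatory genes, Tnfrsf9 (4-1BB, 1.08 ± 0.28), Cd44 (1.16 ± 0.15) and Cd83 (1.38 ± 0.39) were called higher and Icos was called lower (-0.65 ± 0.14). The call for Cd83 was lost without unstimulated replicate 4, at 1.07 with an adjusted p of 0.0669 (edgeR). Of 14 inhibitory receptors Havcr2, which encodes TIM-3 (0.72 ± 0.23), and Lilrb4a (1.74 ± 0.58) were called higher, calls that were lost in 3 and 6 of the 8 fits that left out 1 library.

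Immediate early transcription factors were mostly called higher, 17 of 24, with a median of 1.04, and 1 was called lower, Fosl2, named after its value was seen. The orphan nuclear receptor Nr4a3 stood at 395, 408, 408 and 405 CPM in stimulated libraries against 79.8, 64.6, 78.0 and 74.3 CPM in unstimulated ones. Its stimulated values lay within a narrow range and far above the unstimulated ones (2.45 ± 0.16, adjusted p = 5.79e-19). Its relatives Nr4a1, at 147, 171, 174 and 189 CPM against 29.2, 32.8, 37.0 and 27.9 CPM, and Nr4a2 rose to a like extent (2.43 ± 0.23 and 2.27 ± 0.16). NR4A factors are induced by receptor signalling in lymphocytes and are also known targets of CREB.

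Egr2, a zinc finger factor induced through ERK, stood at 112, 137, 133 and 149 CPM in stimulated against 30.2, 26.6, 17.8 and 14.4 CPM in unstimulated libraries (2.55 ± 0.18, adjusted p = 2.60e-17). Egr3 stood at 86.7, 72.3, 75.5 and 70.3 CPM against 7.79, 15.4, 8.21 and 11.4 CPM (2.81 ± 0.26, adjusted p = 1.62e-13). The groups overlapped for neither gene. Chosen after their values were seen, Egr1 (2.26 ± 0.23) and Irf4, an early factor of antigen receptor signalling (2.05 ± 0.26), rose as well. The AP-1 member Fosl1 stood at 10.03, 10.6, 11.9 and 21.6 CPM against 0.973, 2.05, 2.74 and 0 CPM (3.21 ± 0.53, adjusted p = 4.93e-06), so that its fold change rests on few counts. Myc, a driver of growth genes, stood at 60.9, 54.4, 58.0 and 70.3 CPM against 15.6, 36.9, 17.8 and 21.7 CPM (1.39 ± 0.23, adjusted p = 4.02e-06).

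Of 16 NF-kB subunits and inhibitors 8 were called higher and none lower, with a median of 0.86. Rel, which encodes the subunit c-Rel, stood at 431, 437, 481 and 413 CPM in stimulated against 165, 143, 149 and 117 CPM in unstimulated libraries, without overlap (1.62 ± 0.14, adjusted p = 2.59e-14). Nfkb1, which encodes p105 and p50, rose as well (1.41 ± 0.13). So did the inhibitor genes Nfkbia (1.05 ± 0.14) and Nfkbid (1.87 ± 0.20), themselves NF-kB targets. Among 25 negative feedback and mRNA decay genes 11 were called higher and 3 lower. The largest rise was that of Zc3h12c, a Regnase family ribonuclease (2.85 ± 0.40), followed among the named members by the cytokine signalling inhibitor Cish (1.24 ± 0.23), the ERK phosphatase Dusp2 (1.17 ± 0.14) and the mRNA decay factor Zfp36l1 (0.96 ± 0.19). Pdcd4, a translation inhibitor, fell (-0.50 ± 0.13).

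Of 20 NK lineage transcription factors 15 were not called. Zeb2, a factor of terminal NK maturation, and Zbtb16, which encodes PLZF, rose by the same log2 value (1.59 ± 0.19 and 1.59 ± 0.38). Tcf7, which encodes TCF-1, stood at 166, 118, 139.8 and 157 CPM in stimulated against 259.9, 222, 234 and 292 CPM in unstimulated libraries (-0.80 ± 0.15, adjusted p = 3.15e-05). Klf2, a quiescence factor that drives homing receptor genes, also fell (-1.26 ± 0.34).

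**Figure D2:**
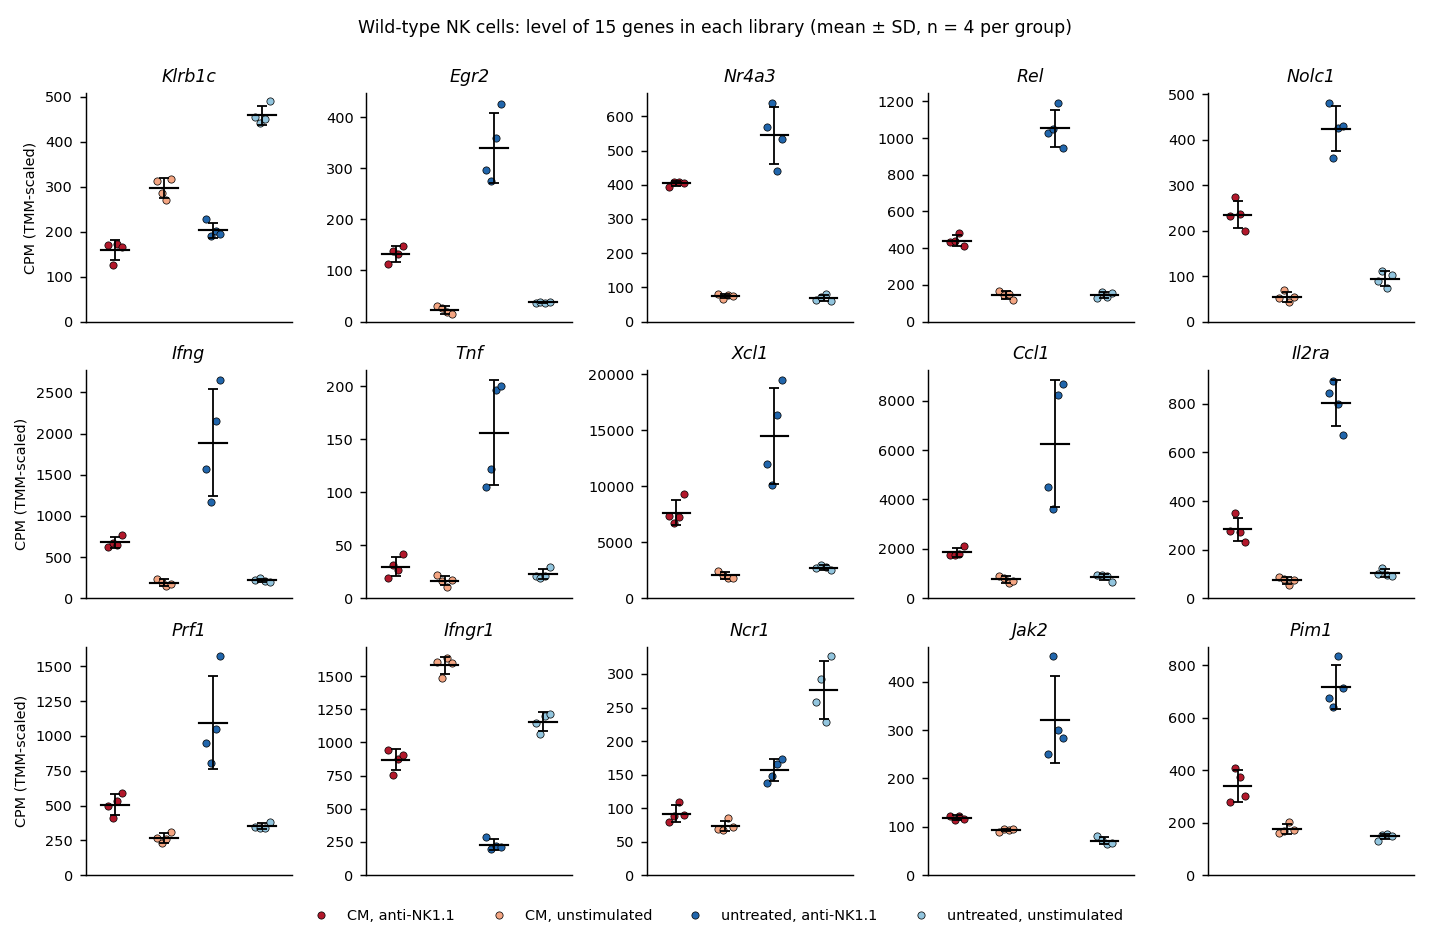
CPM of 15 genes in each library (points), with the mean and SD of each group (lines, n = 4), for WT cells with CM and anti-NK1.1 (dark red), with CM unstimulated (light red), untreated with anti-NK1.1 (dark blue) and untreated unstimulated (light blue). With CM, the stimulated and unstimulated libraries do not overlap for Klrb1c, Egr2, Nr4a3, Rel, Nolc1, Ifng, Xcl1, Ccl1, Il2ra, Prf1, Ifngr1, Jak2 and Pim1, and they overlap for Tnf and Ncr1.

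To show the promoters of genes that rose together, RefSeq promoter windows on GRCm38.p6, from 250 bases before each start to 50 after it, were searched for exact motifs on both strands. A window was found for 8009 of the 10723 tested genes. The cyclic AMP response element TGACGTCA, a palindrome bound by CREB, was present for 36 of 829 genes called higher (4.34%), for 14 of 569 called lower (2.46%) and for 3.98% of all tested genes. The E-box CACGTG, a palindrome bound by MYC and MAX among others, was present for 154 genes called higher (18.6%), for 64 called lower (11.2%) and for 12.1% of all tested genes. Over all 27025 genes with a window these elements were present in 2.03% and 8.09%. The AP-1 site TGACTCA was present for 2.65% of genes called higher, 5.62% of genes called lower and 4.17% of tested genes. The EGR site GCGTGGGCG was present for 1.93%, 1.58% and 1.45%. A pair of NF-kB sites and a pair of serum response cores, searched likewise, were each present for at most 4 of the genes called higher. Neither the cyclic AMP element nor the AP-1 site contains the other, though sites of different motifs can share end bases. A match describes letters only, and no test was run on the shares.

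Upstream stretches of 6 genes that rose are printed 5′ to 3′ on the strand of the gene, with the motif in capitals, the first 3 with the cyclic AMP response element and the others with the E-box. The first base of the motif lies 61 bases before the start of Areg, 62 before Plk2, 51 before Nfkbid, 27 before Egr2, 69 before Iars and 80 before Hspd1. With CM, the log2 fold change was 1.60 ± 0.29 for Plk2, a stress-induced polo-like kinase gene, and 0.90 ± 0.12 for Hspd1, the mitochondrial chaperonin HSP60, and those of Areg, Nfkbid, Egr2 and Iars stand with their groups.
Areg (chr5:91139513-91139570, plus strand): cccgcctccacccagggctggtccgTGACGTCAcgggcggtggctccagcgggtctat
Plk2 (chr13:110394957-110395014, plus strand): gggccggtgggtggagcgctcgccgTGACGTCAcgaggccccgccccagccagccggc
Nfkbid (chr7:30422330-30422387, plus strand): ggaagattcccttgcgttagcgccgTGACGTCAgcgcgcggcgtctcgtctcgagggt
Egr2 (chr10:67535447-67535498, plus strand): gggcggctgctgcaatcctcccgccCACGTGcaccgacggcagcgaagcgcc
Iars (chr13:49682036-49682091, plus strand): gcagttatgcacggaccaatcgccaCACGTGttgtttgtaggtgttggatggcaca
Hspd1 (chr1:55088293-55088348, minus strand): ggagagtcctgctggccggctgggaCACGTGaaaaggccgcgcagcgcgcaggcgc

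Mir155hg, the host transcript of the microRNA miR-155, which lymphocytes induce on activation, stood at 50.9, 82.9, 65.2 and 59.5 CPM in stimulated against 17.5, 19.5, 9.58 and 13.4 CPM in unstimulated libraries (2.07 ± 0.26, adjusted p = 4.66e-09). The transcript was counted, not the mature microRNA. The mature miR-155-5p lies on chr16:84714143-84714165, plus strand of GRCm38.p6, and its RefSeq sequence is given with the seed, bases 2 to 8, in capitals.
mmu-miR-155-5p: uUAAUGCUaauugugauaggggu

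Genes of the cyclic AMP, protein kinase A and CREB pathway did not move as a block, with 8 of 28 called higher, 9 lower and a median of 0.01. Those that rose included the 3 NR4A genes, Rgs16, a regulator of G protein signalling (2.11 ± 0.18), and Areg, the EGF receptor ligand amphiregulin, at 34.4, 27.6, 22.2 and 24.3 CPM in stimulated against 3.89, 3.07, 1.37 and 3.10 CPM in unstimulated libraries (3.16 ± 0.46, adjusted p = 2.64e-07). Crem, the cyclic AMP responsive repressor and a standard readout of PGE2, stood at 239, 198, 234 and 274 CPM in stimulated against 366, 258, 405 and 360.2 CPM in unstimulated libraries. The groups overlapped and the call was weak (-0.55 ± 0.18, adjusted p = 0.0212), being lost without stimulated replicate 2 and without unstimulated replicates 1, 3 or 4, at -0.47 to -0.54. Ier5l, an immediate early response gene, fell more clearly (-1.33 ± 0.29). Chosen after their values were seen, the cyclic AMP phosphodiesterase genes Pde3b (-0.58 ± 0.17), Pde4b (-0.41 ± 0.15), Pde4d (-0.79 ± 0.19) and Pde7a (-0.65 ± 0.19) were called lower. The call for Pde4b was lost in all 8 fits that left out 1 library and that for Pde3b in 2, those without stimulated replicate 4 (-0.44) and without unstimulated replicate 2 (-0.48). The receptor genes of PGE2 were lowly expressed: Ptger2, which encodes EP2, stood at 15.8, 12.2, 11.1 and 12.6 CPM in stimulated against 6.81, 5.12, 4.11 and 6.19 CPM in unstimulated libraries (1.18 ± 0.34, adjusted p = 0.00953), and Ptger4, which encodes EP4, at 23.6, 36.6, 20.7 and 27.9 CPM against 16.5, 21.5, 9.58 and 11.4 CPM (0.85 ± 0.25, adjusted p = 0.0116). The call for Ptger4 was lost without stimulated replicate 2 (0.67, adjusted p = 0.0799, edgeR) and without unstimulated replicate 3 or 4 (0.72 and 0.73, adjusted p = 0.058 and 0.0609, edgeR), and that for Ptger2 with no filter on low counts (adjusted p = 0.0579, edgeR). The third called member of 8 prostanoid genes was Ptges3 (0.72 ± 0.12), a prostaglandin E synthase gene by name. Only its RNA was counted, and synthesis of PGE2 was not measured.

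Of 16 tested cytokine and growth factor genes 6 were called higher and 2 lower, with a median of 0.78. The falls, named after their values were seen, were those of Flt3l and Il16. Ifng, which encodes interferon gamma, the main macrophage-activating cytokine of NK cells, stood at 628, 669, 642 and 771 CPM in stimulated against 240.4, 202, 151 and 170.3 CPM in unstimulated libraries, without overlap (1.82 ± 0.19, adjusted p = 2.32e-11). Csf2, which encodes GM-CSF, stood at 23.6, 33.3, 26.2 and 31.5 CPM against 11.7, 3.07, 6.84 and 5.16 CPM (2.07 ± 0.41, adjusted p = 1.48e-04). The leukaemia inhibitory factor gene Lif (2.62 ± 0.55) and the angiogenic factor gene Vegfa (0.77 ± 0.19) rose too, Lif from a few counts per library. Tnf lay at the threshold: it stood at 19.3, 31.7, 27.02 and 41.5 CPM in stimulated against 22.4, 16.4, 10.95 and 17.5 CPM in unstimulated libraries, and the groups overlapped (0.78 ± 0.29, adjusted p = 0.0501). Left out 1 at a time, stimulated replicate 1 and unstimulated replicate 1 each brought Tnf past the threshold (0.97 and 0.95, adjusted p = 0.0149 and 0.0381, edgeR). It was also past it with DESeq2 (adjusted p = 0.0471), with DESeq2's size factors in edgeR (adjusted p = 0.0468), with no filter on low counts (adjusted p = 0.0283), in a fit of the compared groups only (adjusted p = 0.024) and after thinning 16 libraries (adjusted p = 0.0476). Il2 was near the detection limit and not called (0.98 ± 0.62, adjusted p = 0.305).

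Among 10 tested TNF superfamily ligands, Tnfsf14, which encodes LIGHT, rose most, at 28.7, 43.1, 38.9 and 45.1 CPM in stimulated against 12.7, 5.12, 4.11 and 5.16 CPM in unstimulated libraries (2.45 ± 0.29, adjusted p = 6.16e-10). Tnfsf8, the CD30 ligand, was the other member called (0.95 ± 0.20).

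Chemokine genes gave a median of 1.55, with 6 of 11 called higher and none lower. Xcl1, which draws cross-presenting dendritic cells, stood at 7384, 6719.9, 7219 and 9265 CPM in stimulated against 2408, 2116, 1803 and 1844 CPM in unstimulated libraries (1.90 ± 0.17, adjusted p = 1.03e-13). The inflammatory chemokine genes Ccl4, at 5451, 5301, 5521 and 6809.5 CPM against 2431, 1929.6, 1685 and 1722 CPM, and Ccl3, at 2986, 2720.2, 2791 and 3866 CPM against 1343, 1111, 832 and 921 CPM, rose by similar amounts (1.57 ± 0.19 and 1.55 ± 0.24). Stimulated replicate 4 was the highest for Xcl1, Ccl3, Ccl4 and Ccl1. The CCR8 ligand gene Ccl1 (1.28 ± 0.20) and the macrophage chemokine gene Ccl9 (2.09 ± 0.21) rose as well. The sixth, the neutrophil chemokine gene Cxcl2, chosen after its values were seen, had a mean of 3.33 CPM in stimulated libraries and no count in the 4 unstimulated ones, which makes it at least 4.15-fold higher against a floor of 3 counts over the group. Ccl5, abundant in resting NK cells, was not called (-0.33 ± 0.20, adjusted p = 0.289).

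Genes of the cytotoxic granule changed by smaller factors. Of 20 tested perforin, granzyme and granule genes 6 were called higher and 1 lower, with a median of 0.20. The fall, named after its value was seen, was that of the protease gene Ctsd. Prf1, which encodes the pore-forming protein perforin, stood at 494, 414, 530.0 and 593 CPM in stimulated against 265, 231, 257 and 312 CPM in unstimulated libraries (0.93 ± 0.18, adjusted p = 9.86e-05). Gzmb, which encodes granzyme B, stood at 1632, 1486, 1715 and 2059 CPM against 1117, 892, 1057 and 983 CPM (0.77 ± 0.23, adjusted p = 0.0139), a call that was lost without stimulated replicate 4 (0.67, adjusted p = 0.0528, edgeR). Both genes were higher in every stimulated library than in any unstimulated one. The granule proteoglycan gene Srgn (0.96 ± 0.19) and the granzyme B inhibitor gene Serpinb9 (0.56 ± 0.14) rose. Of 16 genes of granule release none was called higher and 2 were called lower, the lysosomal trafficking regulator Lyst (-0.82 ± 0.22) and the WASP partner Wipf1 (-0.66 ± 0.13).

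Cytokine receptor and STAT genes moved in both directions, with 4 of 28 called higher and 6 lower. Il2ra, the high-affinity IL-2 receptor chain, stood at 278, 349, 274 and 233 CPM in stimulated against 87.6, 77.9, 53.4 and 76.4 CPM in unstimulated libraries (1.93 ± 0.21, adjusted p = 1.00e-10), and Il21r rose by 1.06 ± 0.15. Ifngr1, the ligand-binding chain of the interferon gamma receptor, stood at 941, 756, 875 and 906 CPM against 1603, 1485, 1638 and 1595 CPM, with every stimulated library lower (-0.86 ± 0.14, adjusted p = 2.91e-06). Il7r (-1.35 ± 0.37) and the TGF-beta receptor gene Tgfbr2 (-0.67 ± 0.12) fell. Of 20 IL-2, IL-15 and STAT5 target genes 9 were called higher, among them the cell cycle gene Ccnd2 (1.14 ± 0.13) and the survival kinase gene Pim1 (0.96 ± 0.12), and 1 was lower, Socs2, named after its value was seen.

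Falls were most frequent among chemokine receptor, egress and adhesion genes, of which 11 of 21 were called lower and 1, Cd69, higher, with a median of -0.52. Ccr2, the receptor for inflammatory monocyte chemokines, stood at 916, 692, 774 and 651 CPM in stimulated against 1563, 1238, 1131 and 1408 CPM in unstimulated libraries (-0.82 ± 0.14, adjusted p = 1.32e-05). Cxcr3, the receptor for interferon-induced chemokines, stood at 13.6, 15.4, 14.3 and 13.5 CPM against 36.0, 35.9, 31.5 and 24.8 CPM (-1.17 ± 0.24, adjusted p = 2.00e-04). Neither gene showed overlap between the groups. Chosen after its values were seen, the egress receptor gene S1pr1 (-1.101 ± 0.34) fell as well. S1pr1 is a target of Klf2, and CD69 protein acts against it. Its call was lost without stimulated replicate 1 (-0.84) and without unstimulated replicate 3 (-0.98) or 4 (-0.98). The plexin gene Plxnc1, at 17.9, 12.2, 22.2 and 18.9 CPM against 42.8, 33.8, 42.4 and 57.8 CPM (-1.31 ± 0.28, adjusted p = 3.77e-04), and the drug efflux transporter gene Abcb1a, at 150.5, 102, 115 and 91.9 CPM against 287, 243, 326 and 328 CPM (-1.36 ± 0.16, adjusted p = 1.68e-09), were among the 12 largest falls, as was Tmem71, which encodes a membrane protein, at 37.3, 21.9, 35.0 and 24.3 CPM against 88.6, 82.0, 119 and 91.8 CPM (-1.66 ± 0.19, adjusted p = 5.35e-10).

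Ribosome biogenesis genes gave the most uniform rise of any list, with 24 of 25 called higher, none lower and a median of 1.61, Bop1 being the member not called (0.42 ± 0.22, adjusted p = 0.208). Nolc1, a nucleolar chaperone of small nucleolar particles, stood at 231, 273, 236 and 200.0 CPM in stimulated against 51.6, 69.7, 43.8 and 53.7 CPM in unstimulated libraries (2.09 ± 0.16, adjusted p = 4.97e-16). The nucleolar GTPase gene Gnl3 (1.83 ± 0.15), the small nucleolar particle gene Nop58 (1.75 ± 0.14) and the helicase gene Ddx21 (1.64 ± 0.13) followed. Pus7, a pseudouridine synthase that is not on the list, was among the 12 largest rises, at 45.9, 55.2, 63.6 and 59.5 CPM against 12.7, 11.3, 4.11 and 8.26 CPM (2.56 ± 0.30, adjusted p = 4.93e-10). Genes for the ribosomal proteins themselves did not follow: 2 of 29 were called, Rps24 and Rpl30, and the median was -0.20. The call for Rpl30 rested on stimulated replicate 4, without which it was 0.14 with an adjusted p of 0.684 (edgeR), and that for Rps24 was lost without stimulated replicate 1 (0.55) or 4 (0.52).

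Other protein synthesis and folding lists held many called rises and no called fall. Of 20 translation initiation genes 13 were called higher, for example Eif2b3 (1.53 ± 0.23) and the helicase gene Eif4a1 (1.28 ± 0.17). Of 23 genes of the amino acid response and tRNA charging 14 were called higher, for example the isoleucyl-tRNA synthetase gene Iars (1.83 ± 0.20) and the mitochondrial folate enzyme gene Mthfd2 (1.56 ± 0.16). Of 22 endoplasmic reticulum genes 13 rose, led by the chaperone genes Hyou1 (1.61 ± 0.26) and Hspa5, which encodes BiP (1.43 ± 0.13). Of 17 heat shock and chaperonin genes 13 rose, for example Hsph1 (1.41 ± 0.20) and the chaperonin subunit gene Cct6a (1.04 ± 0.11).

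Metabolic and cell cycle genes showed fewer calls. Of 20 glycolysis and nutrient uptake genes 5 were called higher, including the lactate transporter gene Slc16a1 (2.24 ± 0.31), the transferrin receptor gene Tfrc (1.66 ± 0.19) and the hexokinase gene Hk2 (1.41 ± 0.30). Of 22 sterol and fatty acid synthesis genes 4 were called higher, such as Fasn (1.06 ± 0.20), and of 26 proteasome genes 5. Of 21 nuclear respiratory chain genes only Cycs, which encodes cytochrome c, was called (0.89 ± 0.19). Of 30 cell cycle and replication genes the inhibitor gene Cdkn1a, which encodes p21, was called higher (1.08 ± 0.20), and 3 were called lower, the replication genes Mcm7 and Cdt1 and the inhibitor gene Cdkn1b, which encodes p27 (-0.91 ± 0.13). The calls for Mcm7 and Cdt1 were each lost in fits that left out 1 library. Of 20 BCL2 family and death genes 4 were higher, among them the anti-apoptotic genes Bcl2l1 (0.83 ± 0.22) and Bcl2a1d (1.79 ± 0.29), whose near-identical copies make its count uncertain. Of 20 interferon-stimulated genes none was higher and only Irf7 was lower, a call that was lost in 7 of the 8 fits that left out 1 library.

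**Figure D3:**
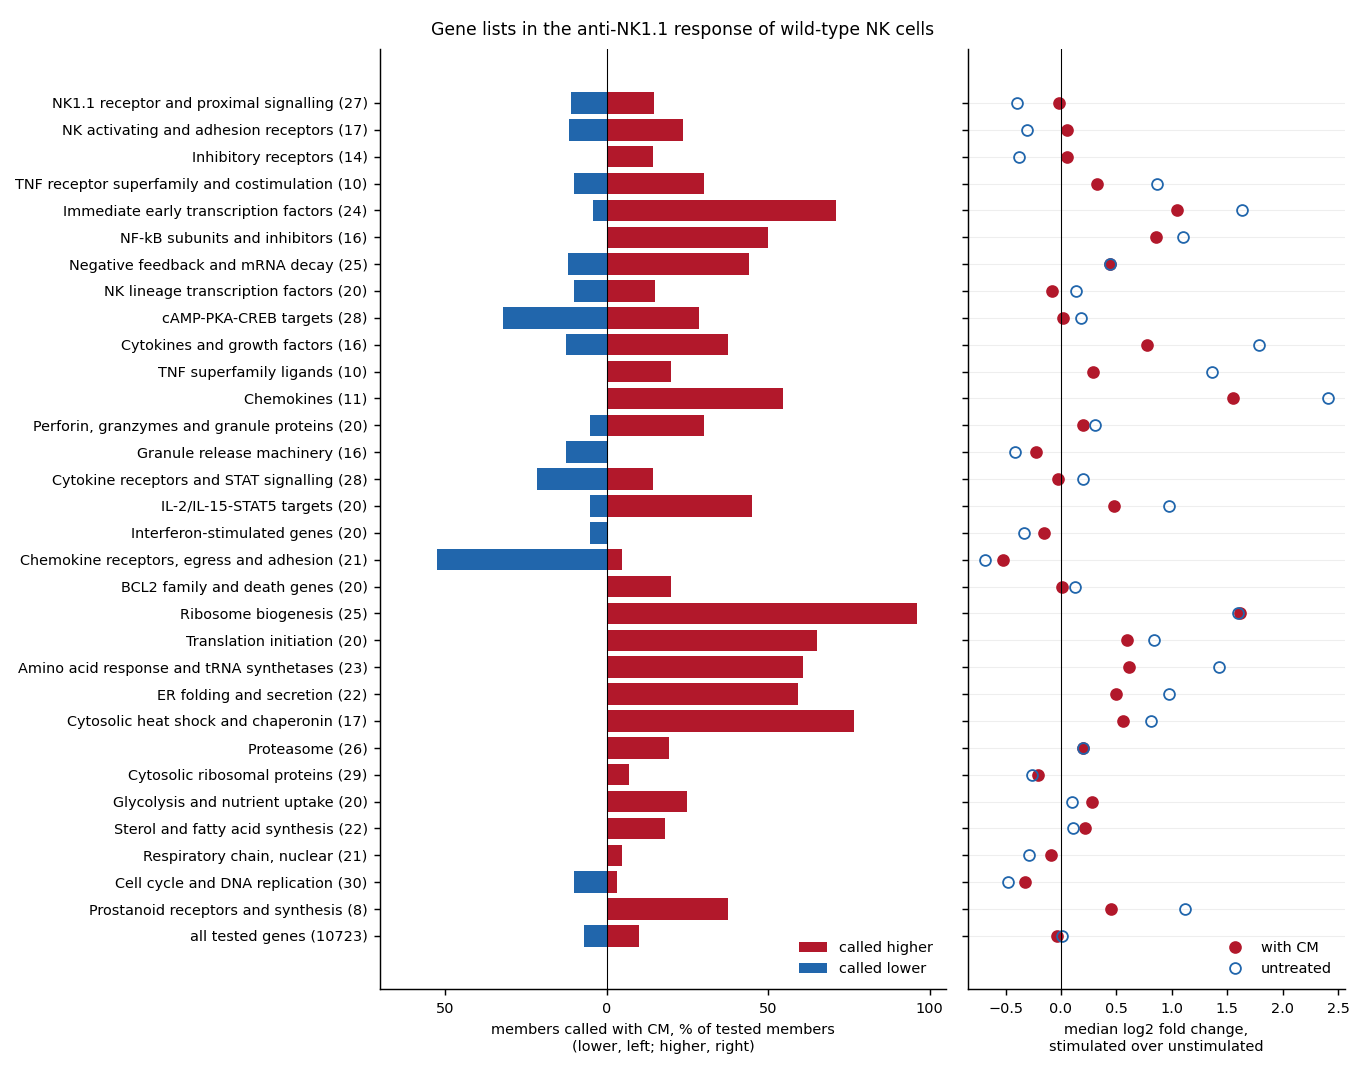
Share of the tested members of each gene list (number in parentheses) called higher (red, right) or lower (blue, left) by anti-NK1.1 with CM, and the median log2 fold change of each list with CM (filled) and untreated (open). Ribosome biogenesis reaches 24 of 25 members higher with medians of 1.61 with CM and 1.60 untreated, while chemokines have medians of 1.55 with CM and 2.41 untreated. Taken gene by gene, the median difference, CM minus untreated, was -0.23 for ribosome biogenesis, -0.61 for chemokines and -0.02 over all tested genes (not drawn).

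The second question of the design is how far this response differs from that of WT cells without CM, with which it shares no library. Untreated WT cells had 2465 genes called higher (23.0%) and 2043 lower (19.1%), in all 42.0% of those tested against 16.9% with CM. Of the 1059 genes called higher with CM, 936 were also called higher without it, which is 88.4% of the CM calls and 38.0% of the untreated ones. Of the 750 called lower with CM, 552 were also called lower without it, which is 73.6% of the CM calls and 27.02% of the untreated ones. In opposite directions 4 genes were called. Across the 10723 genes the log2 fold changes had a Pearson correlation of 0.69, as a description of genes that are not independent. The untreated libraries were deeper, at 1359240 ± 99481.8 counts stimulated and 1197290 ± 133757 unstimulated (SD, n = 4 each). After thinning all 16 WT libraries to the lowest total, an alternative chosen after seeing the data, 1346 genes were called with CM and 3400 without it.

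EP2KO cells without CM, 4 stimulated and 4 unstimulated libraries, gave a choice of genes that uses no library of either response. The choice was made without CM, as was the untreated WT response, so it favours genes that respond more without CM. No choice from cells with CM was set beside it, so the values below describe the chosen genes only. The 1969 genes called higher by anti-NK1.1 there had a median log2 fold change of 0.54 in WT cells with CM and 0.93 in untreated WT cells, and 82.3% of them had the smaller value with CM. The 1606 genes called lower had medians of -0.45 with CM and -0.81 without it, and 83.4% had the less negative value with CM.

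Tested directly, the response with CM minus that without it was below 0 for 145 genes (1.35% of those tested) and above 0 for 90 (0.839%). Of the 145 genes, 138 were called higher in untreated cells, and of these 49 were also called higher with CM, 86 were not called and 3 were called lower. Of the 90 genes, 86 were called lower in untreated cells, of which 35 were also called lower with CM, 50 were not called and 1 was called higher. As a description of the same libraries, 102 of the 145 genes were lower with CM than without it after stimulation, and 44 were already higher with CM before stimulation. Of the 90 genes, 62 were higher with CM after stimulation and 23 were lower with CM before it.

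Among the 145 genes with a lower response were Ifng, Tnf, Ccl1 and Rel. The log2 fold change of Ifng was 1.82 with CM and 3.12 without it, where it stood at 1574, 1174, 2158 and 2645 CPM in stimulated against 221, 242, 211 and 196 CPM in unstimulated libraries (difference -1.29 ± 0.26, adjusted p = 0.00197). Before stimulation the log2 difference of Ifng between cells with and without CM was -0.18 ± 0.19 (adjusted p = 0.61), and after it -1.48 ± 0.18. Tnf stood at 105.1, 122, 197 and 200.1 CPM in stimulated against 21.1, 19.1, 21.0 and 29.9 CPM in unstimulated untreated libraries (difference -1.99 ± 0.38, adjusted p = 8.24e-04). For Ccl1 the log2 fold changes were 1.28 with CM and 2.85 without it (difference -1.57 ± 0.28, adjusted p = 3.29e-04), and for Rel 1.62 and 2.85 (difference -1.23 ± 0.19, adjusted p = 3.25e-05).

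Pim1 had the smallest p of the contrast. It stood at 277, 409, 373 and 304 CPM in stimulated against 163, 167, 203 and 172 CPM in unstimulated libraries with CM, and at 676, 642, 835 and 714 CPM against 131, 154, 155 and 149.5 CPM without it. All 4 stimulated libraries without CM lay above all 4 with CM (difference -1.33 ± 0.17, adjusted p = 1.30e-06). Jak2, which encodes a kinase of interferon gamma and IL-12 receptors, stood at 123, 115, 123 and 116 CPM against 89.5, 95.3, 93.1 and 94.9 CPM with CM, a change called in a fit of the compared groups only (adjusted p = 0.0386) and not in the fit of all groups, and at 251.3, 452, 299 and 283 CPM against 81.4, 72.6, 64.8 and 65.6 CPM without it (difference -1.82 ± 0.24, adjusted p = 1.43e-06). Pdgfa, a platelet-derived growth factor chain, stood at 73.1, 99.1, 73.9 and 87.4 CPM against 38.9, 36.9, 37.0 and 36.1 CPM with CM and at 491, 414, 481 and 390.2 CPM against 45.1, 73.4, 61.9 and 61.5 CPM without it (difference -1.72 ± 0.27, adjusted p = 3.25e-05). Among stress and growth genes Atf4 (-0.92 ± 0.16), Hspa5 (-0.83 ± 0.18) and Ccnd2 (-0.98 ± 0.19) were called in the same direction and kept that call without each of the 16 libraries in turn.

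For other genes CM had already shifted the level before stimulation. Rgs1, a regulator of G protein signalling, averaged 568 ± 21.7 CPM in stimulated and 470.2 ± 26.5 CPM in unstimulated libraries with CM, against 456 ± 52.6 and 151 ± 19.8 CPM without it (SD, n = 4 each, difference -1.32 ± 0.21, adjusted p = 3.37e-05). CM without stimulation had raised Rgs1 by 1.64 ± 0.15 on the log2 scale. Kcnn4, a calcium-activated potassium channel gene, showed the same pattern, at 36.6 ± 9.97 and 30.7 ± 6.94 CPM with CM against 37.5 ± 9.31 and 9.39 ± 2.003 CPM without it (difference -1.74 ± 0.39, adjusted p = 0.00621). Bach1, a heme-sensitive repressor, was called in opposite directions, lower with CM (-0.80 ± 0.23) and higher without it (0.95 ± 0.21, difference -1.75 ± 0.31, adjusted p = 2.81e-04). Its call with CM was lost without unstimulated replicate 2 (-0.58, adjusted p = 0.112, edgeR), while that of the difference was kept without each library.

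Among genes whose response was more positive with CM, Ifngr1 had the smallest p. In untreated cells it stood at 287, 194, 217 and 215 CPM in stimulated against 1148, 1063, 1202 and 1216 CPM in unstimulated libraries, a log2 change of -2.34 ± 0.15, against -0.86 ± 0.14 with CM (difference 1.48 ± 0.20, adjusted p = 1.52e-06). Cdkn1b (0.80 ± 0.18) and Pdcd4 (0.77 ± 0.18) likewise fell less with CM. Mxi1, a MAX-binding antagonist of MYC, stood at 35.1, 35.7, 42.9 and 35.1 CPM against 29.2, 34.8, 43.8 and 44.4 CPM with CM and at 9.90, 8.63, 5.49 and 3.12 CPM against 24.7, 16.7, 24.8 and 26.6 CPM without it (difference 1.72 ± 0.33, adjusted p = 9.90e-04). The chemokine receptor gene Cxcr6 (0.54 ± 0.29 with CM, -1.12 ± 0.27 without it) and the costimulatory receptor gene Cd28 (0.24 ± 0.18 and -0.85 ± 0.18) were not called with CM and fell without it (differences 1.66 ± 0.39, adjusted p = 0.0114, and 1.09 ± 0.26, adjusted p = 0.0107). In a fit of the compared groups only, Cxcr6 was called higher with CM (adjusted p = 0.0363, edgeR).

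Ncr1 averaged 91.5 ± 12.4 CPM in stimulated and 73.2 ± 7.91 CPM in unstimulated libraries with CM, against 156 ± 16.2 and 276 ± 43.1 CPM without it, and its level before stimulation was lower with CM (-1.92 ± 0.17 on the log2 scale, difference 1.15 ± 0.23, adjusted p = 0.00152). Ptpn6 was the gene that rose in both settings but more with CM, at 132 ± 10.4 and 49.2 ± 3.33 CPM with CM against 185 ± 23.5 and 148 ± 27.7 CPM without it (difference 1.101 ± 0.20, adjusted p = 4.32e-04). Its stimulated level with CM stayed below that without CM.

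**Figure D4:**
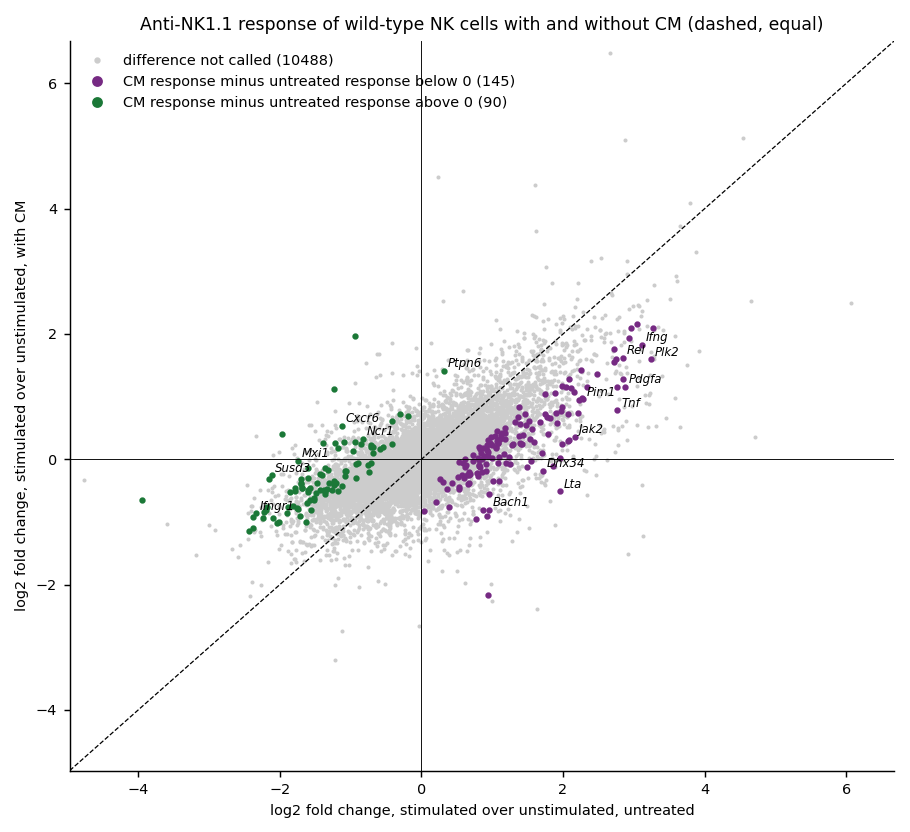
Log2 fold change by anti-NK1.1 of each tested gene in WT cells with CM (vertical) against that in untreated WT cells (horizontal), with the line of equal change dashed. Purple points are the 145 genes whose response with CM minus that without was called below 0, such as Tnf, Ifng and Jak2, and green points the 90 called above 0, such as Ifngr1, Mxi1 and Ptpn6.

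Other groups showed no called difference. None of the 24 immediate early genes, the 25 ribosome biogenesis genes or the 17 heat shock genes differed between the responses at an adjusted p under 0.05. Over all tested genes 2.19% were called in either direction, and at that share a list of this size holds few calls or none. The median differences of these lists were below 0, at -0.32, -0.23 and -0.17, against -0.02 over all tested genes. The difference was 0.26 ± 0.32 for Nr4a1, -0.54 ± 0.22 for Nr4a3, -0.63 ± 0.25 for Egr2, -0.23 ± 0.20 for Gnl3 and -0.23 ± 0.17 for Ddx21. Xcl1 (-0.49 ± 0.23, adjusted p = 0.263), Ccl4 (-0.84 ± 0.27, adjusted p = 0.0763) and Prf1 (-0.70 ± 0.25, adjusted p = 0.121) were not called either, and DESeq2 called Ccl4 (adjusted p = 0.0325). A p above the threshold does not show that these responses were equal, and for Csf2 the difference was as large as -1.35 ± 0.59 without being called (adjusted p = 0.212). The differences of Ccl3 (adjusted p = 0.0497) and Il2ra (adjusted p = 0.0418) were called, and each call was lost in 12 of the 16 fits that left out 1 library (edgeR).

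**Figure D5:**
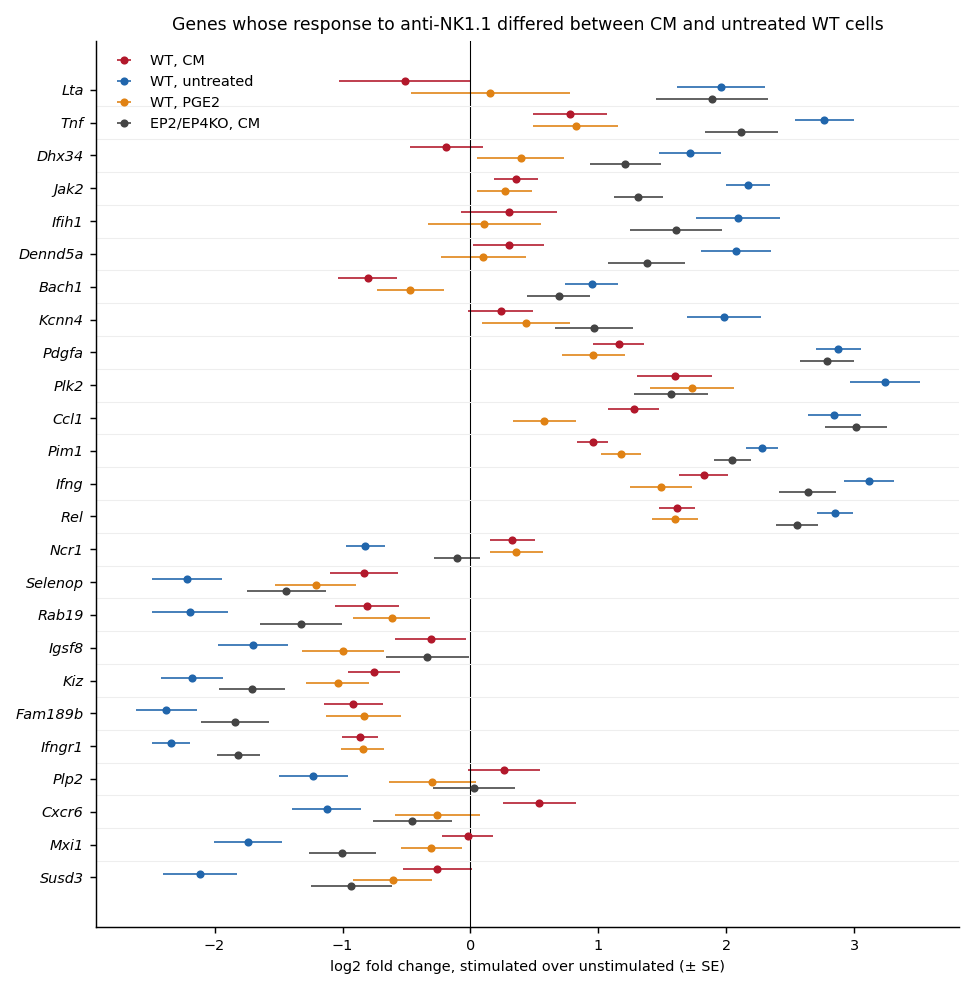
Log2 fold change by anti-NK1.1 with its SE for 25 genes, in WT cells with CM (red), untreated WT cells (blue), WT cells with PGE2 (orange) and EP2/EP4KO cells with CM (grey). For Pim1, Rel, Ifng and Ifngr1 the WT values with CM and with PGE2 lie nearer 0 than those of untreated WT and of EP2/EP4KO cells with CM.

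PGE2 alone allowed a further comparison, with 4 stimulated and 2 unstimulated libraries. Anti-NK1.1 raised 567 genes and lowered 318 in WT cells with PGE2. The response with CM minus that with PGE2 was called for no gene in either direction (0% of those tested) by edgeR, and DESeq2 called none as well. By edgeR 302 genes had an unadjusted p under 0.05, and the smallest adjusted p was 0.936. Since only 2 libraries with PGE2 were unstimulated, the lack of calls does not show that the responses were equal. The log2 fold change was 1.82 ± 0.19 with CM and 1.49 ± 0.24 with PGE2 for Ifng, 1.62 ± 0.14 and 1.60 ± 0.18 for Rel, -0.86 ± 0.14 and -0.84 ± 0.17 for Ifngr1, and 0.35 ± 0.17 and 0.27 ± 0.21 for Jak2. Differences between the responses of these genes were 0.33 ± 0.30 for Ifng, 0.01 ± 0.22 for Rel, -0.02 ± 0.22 for Ifngr1 and 0.09 ± 0.28 for Jak2.

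In EP2/EP4KO cells with CM, anti-NK1.1 raised 1541 genes and lowered 1146. The WT response minus that of EP2/EP4KO cells, both with CM, was called below 0 for 12 genes (0.112% of those tested) and above 0 for 2 (0.0187%). Pim1 averaged 341 ± 61.1 CPM in stimulated and 176 ± 18.1 CPM in unstimulated WT libraries, against 606 ± 96.2 and 147 ± 8.51 CPM in EP2/EP4KO libraries (SD, n = 4 and 3, difference -1.09 ± 0.19, edgeR adjusted p = 0.00154). Ccl1 averaged 1858 ± 184 and 765 ± 132 CPM in WT against 7037 ± 2816 and 871 ± 194 CPM in EP2/EP4KO libraries (difference -1.74 ± 0.30, edgeR adjusted p = 0.00154). Pdgfa also kept its call without each of the 14 libraries in turn (difference -1.63 ± 0.29), as did Pim1 and Ccl1. The calls for Rel (-0.94 ± 0.21) and Ifngr1 (0.95 ± 0.22) were lost in 9 and 12 of these 14 fits (edgeR). Genotype and sex cannot be told apart here. For Ifng (-0.81 ± 0.28, adjusted p = 0.418) and Tnf (-1.34 ± 0.41, adjusted p = 0.291) the difference between genotypes was not called.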

How the data were processed

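The authors deposited 1 table of raw counts for 36273 gene symbols in 64 libraries of 3' mRNA sequencing. Per the labels' protocols, libraries carried barcodes and unique molecular identifiers, and whether the counts are molecules or reads, like the aligner, is not given in the sources used here. DESeq2 and the build GRCm38 (mm10) are named per the submitters' processing notes. No row was without a gene name and every column matched 1 sample. The filter filterByExpr of edgeR, with its minimum count set to 10, kept 10723 genes and 99.2% of all counts. All 64 libraries in 18 groups were fitted by edgeR 4.0.16's quasi-likelihood method with robust dispersion (limma 3.58.1, R 4.3.3), with TMM scaling and Benjamini-Hochberg adjustment over the tested genes. DESeq2 1.42.0 was an alternative. The fit was also run on simulated counts, and its outcome is not given here. Those counts were drawn independently for each library, so that run cannot address likeness between same-numbered libraries. Libraries of about 1000000 counts make 1 count close to 1 CPM, so that values of a few CPM carry a large counting error.

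The members and the 38 gene lists were chosen with earlier results of these data known. Named genes are the 12 largest called rises and the 12 largest called falls without overlap at an average log2 CPM of at least 4 (10 each way for the difference from untreated cells, 5 for other differences), those 4 members per list that were called at the lowest p (2 for the difference), and a few genes that were always reported. The rankings passed over predicted genes, numbered clones, antigen receptor segments and mitochondrial genes. Genes outside this rule are said to be chosen after their values were seen. Some genes are not reported here. Gene positions are from GENCODE for GRCm38, where 35055 symbols matched 1 gene, and counting by strand is not stated, so that overlapping or antisense genes may share counts. Alternatives were DESeq2, its size factors, no filter, a replicate block, a 2-fold minimum, a fit of the compared groups only, thinning to the lowest total, and leaving out each library.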

Additional observations from a re-analysis of the deposited data

Results flagged for a closer look

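Among 96 groups of 4 values tested for a single value far from the rest, 6 were set apart, and chance sets apart about 1 in 20. In stimulated libraries with CM, Klrb1c was lowest in replicate 2 at 127 CPM, Ccl4 was highest in replicate 4 at 6809.5 CPM, Ccl1 was highest in replicate 4 at 2130.2 CPM and Mxi1 was highest in replicate 3 at 42.9 CPM. In the same group, replicate 1 had the lowest mitochondrial share of counts, 7.49%, and the lowest share held by the 20 most abundant genes, 18.9%.

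The response with CM differed between WT and EP2/EP4KO cells at 14 genes by edgeR's quasi-likelihood test of the difference itself. The log2 difference, WT minus EP2/EP4KO, was -1.74 for Ccl1, -1.63 for Pdgfa, -1.49 for Bach1, -1.37 for the adhesion gene Icam1, -1.14 for the sorting nexin gene Snx9, -1.12 for Rgs1, -1.09 for Pim1 and -0.94 for Rel. It was 0.83 for the heterochromatin protein gene Cbx3 and 0.95 for Ifngr1.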

How the results depend on the processing

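Of the 1809 genes called in the response with CM, 1788 stayed called with DESeq2's size factors, 1674 with DESeq2, 1240 with no filter on low counts and 1809 with the replicate block, and none changed sign. A minimum change of 2-fold left 427 higher and 157 lower, and no filter left 403 lower. The labels do not say that replicate numbers pair samples, and the main fit did not pair them. Correlations were taken over 7282 genes, on the deviation of each library's log2 CPM from the mean of its group, not on the levels themselves. Deviations of a gene sum to 0 within a group, so correlations with differently numbered libraries are pulled down where that with the same number is high. Deviations of same-numbered stimulated and unstimulated libraries with CM had correlations of 0.220, 0.413, -0.0143 and 0.164. Those of same-numbered stimulated libraries with and without CM had correlations of 0.246, 0.526, -0.045 and 0.598. In both sets, stimulated libraries 1, 2 and 4 with CM correlated best with their own number and 3 did not. A shared source of same-numbered libraries was not tested, and the unpaired fit ignores it. The replicate block also kept all 235 calls of the difference from untreated cells, and every other setting kept fewer. Of these 235 genes, 229 stayed called with DESeq2's size factors, 209 with DESeq2 and 134 with only the compared groups in the fit. No filter on low counts kept 114 and thinning 16 libraries kept 95. With 1 library left out, 119 to 224 stayed called. With the replicate block, 1188 genes were lower with CM, 383 and 536 had a difference from untreated cells above and below 0, and 15 and 51 a WT minus EP2/EP4KO difference. With it Tnf and Cxcr6 were called higher with CM (adjusted p = 0.0134 and 0.0208, edgeR).

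The number of genes whose response differed from that without CM, above 0 and below 0, depended on the setting: 160 and 240 with DESeq2, 55 and 94 with only the compared groups in the fit, 45 and 69 after thinning 16 libraries, and 70 below 0 with no filter. Leaving out 1 library gave 56 to 171 above 0 and 58 to 204 below 0. The fewest above 0 came without stimulated replicate 4 with CM, and the fewest below 0 without unstimulated replicate 1 of the untreated cells. WT minus EP2/EP4KO gave 8 above and 29 below 0 with DESeq2, 4 above 0 with no filter, and 0 to 6 above and 4 to 18 below 0 with 1 library left out. The causes were not tested.

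Uncalled responses with CM changed sign for Icam1 (-0.081 after thinning 16 libraries), Mxi1 (0.0084 with no filter, 0.023 and 0.11 after thinning 8 or 16 libraries, -0.14 to 0.068 with 1 library left out) and Snx9 (-0.13 to 0.061 with 1 library left out). Thinning of 16 libraries was chosen after seeing the data.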
